A study of Mus musculus with 5 samples.

Results

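The translation initiation and elongation factors were described in ribosome profiling of mouse embryonic stem cells (mESCs). Members were all protein-coding genes whose symbol begins with Eif1 to Eif6 or with Eef1 or Eef2, and each gene was represented by the protein-coding transcript with the most reads. This rule gave 68 of 21837 protein-coding genes, with 217 of the 135276 deposited transcripts. By symbol, 5 genes belonged to eIF1, 15 to eIF2, 14 to eIF3, 16 to eIF4, 5 to eIF5 and eIF6, and 13 to the eEF group.

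The study isolated ribosomes by the methionine analogue L-azidohomoalanine (AHA) in their nascent chains and compared the footprints with those of ordinary ribosome profiling. In both groups, mESCs of a single line at 80% confluence received cycloheximide, an inhibitor of elongation, and RNase I (1.3 U, 45 min) was then added to the lysate in the presence of sBlock, a reagent that holds the nascent chain on the ribosome. In standard RIBO-seq (3 libraries), ribosomes were pelleted through 30% sucrose. In AHARIBO RIBO-seq (2 libraries), ribosomes were pulled out of the lysate on magnetic beads through a biotin clicked onto the AHA that nascent chains take up after methionine depletion. The groups thus differ in purification. The study describes standard RIBO-seq as made from the input, and the labels call all libraries untreated, so whether the standard libraries' cells also received AHA is not given in the sources used here. The labels call the libraries biological replicates, with no word on separate cultures. Fragments of 25 to 35 nt were sequenced, and 6403651 to 11150527 counts per library remained after duplicate reads had been removed.

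Initiation factors bring the initiator methionyl-tRNA and the mRNA to the small ribosomal subunit and hold the complex in a scanning state until a start codon is found. Elongation factors then deliver aminoacyl-tRNA and move the ribosome along the codons. The genes of these factors are among the housekeeping genes, and many of their mRNAs are themselves controlled at translation, for example by a terminal oligopyrimidine tract, by upstream reading frames or by a poor start codon context.

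The marker genes of embryonic stem cells were all well covered, with a summed level of 1317 to 1497 CPM (counts scaled to the library size) for 10 of 10 genes. In contrast, the summed level of 6 fibroblast or feeder markers did not exceed 5.04 CPM, with Dcn and Lum at 0 in all libraries. Markers of primed or differentiating cells summed to at most 5.87 CPM. Among 5 neuronal markers, Tubb3 and Stmn2 held most of the 94.9 to 102 CPM, and Dcx did not pass 1 CPM in any library. In edgeR's quasi-likelihood test, where 4.51% of all transcripts were called, the stem cell markers Sox2 (log2 fold change −0.32, adjusted p = 0.0130) and Klf4 (−0.34, adjusted p = 0.00836) were lower in AHARIBO RIBO-seq and Tfcp2l1 (0.28, adjusted p = 0.0257) was higher, the last of them not with duplicate reads kept (0.19, adjusted p = 0.219).

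The footprint levels of the translation factors were nearly alike in the 2 methods. Of 68 members, 65 passed 1 CPM in at least 1 library and were tested, Eif4e3 and Eef1akmt3 stayed below 1 CPM, and Eif4e1b had 0 counts in every library, which allows up to 0.262 to 0.476 CPM (3 counts, counting error only). With edgeR's quasi-likelihood test over all 66972 transcripts, 4 of 65 members (6.15%) passed an adjusted p of 0.05. Eif4ebp2 was higher in AHARIBO RIBO-seq (1.54%), and Eif3f, Eif3i and Eif4ebp1 were lower (4.62%). Over all transcripts, 4.51% were called (2.27% higher and 2.24% lower), and over the most abundant protein-coding transcript of each gene 5.13% (2.6% higher and 2.53% lower), so that the members' share was near the background. DESeq2 called 0 members and 0.399% of all transcripts, with 8 members at an unadjusted p under 0.05 against 13 with edgeR. Leaving out AHARIBO replicate 1, standard replicate 1 or standard replicate 3 left 0 members called by edgeR, with 8, 8 and 11 at an unadjusted p under 0.05. Leaving out standard replicate 2 left Eif4ebp1 and Eif4ebp2 called, and leaving out AHARIBO replicate 2 gave 7 calls, among them Eif3f, Eif4ebp1 and Eif4ebp2 but not Eif3i. Where 1 AHARIBO library remained, it was assumed to vary like the standard libraries. The lysates are bulk samples, so fewer cells with a transcript and less RNA per cell cannot be told apart.

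The size of the differences was small throughout. The median log2 fold change of the 65 members, AHARIBO over standard, was −0.02, with 31 above and 34 below 0, against a median of 0.00 for all transcripts. The median was −0.14 for eIF1, 0.03 for eIF2, −0.06 for eIF3, 0.02 for eIF4, 0.08 for eIF5 and eIF6, and −0.07 for eEF. For 63 of 65 members, the log2 fold change with 2 standard errors (SE) to each side lay within 1, a 2-fold change, and for 57 it lay within 0.5. Among 50 members with a mean of at least 20 CPM, the SE was 0.08 to 0.10 and the largest absolute log2 fold change was 0.32, while among the 15 members under 20 CPM the SE was 0.11 to 0.43. In 29 members (44.6%) the 2 groups of libraries did not overlap, with AHARIBO RIBO-seq above in 9 and below in 20. Such separation was common in the data and held for 33.8% of all transcripts (17.3% above, 16.5% below) and for 34.3% of the most abundant protein-coding transcripts of all genes (17.2% above, 17.1% below). Among the members it was 13.8% above and 30.8% below, and how far duplicate removal and position in the transcript, described further on, had a part in this imbalance was not tested.

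**Figure D1:**
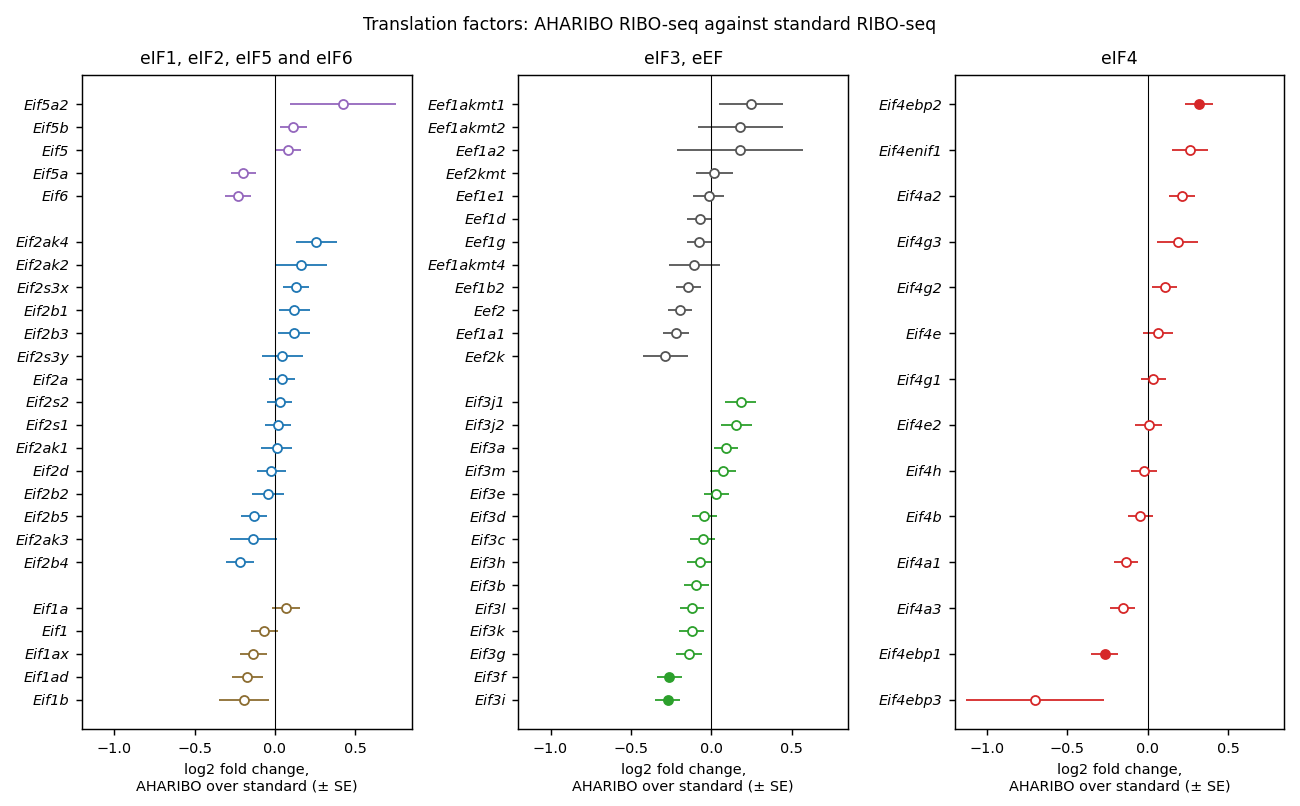
Log2 fold change of AHARIBO over standard RIBO-seq (x axis, point ± SE) for the 65 members tested, sorted by value within each group (y axis), in 3 panels coloured by group. Filled points mark the 4 members called by edgeR at an adjusted p under 0.05, and nearly all points lie close to 0, with wide bars for the members with few reads such as Eif4ebp3 and Eif5a2.

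Other genes of the translation machinery were also compared. In a list of 52 further factors (initiation regulators such as Pabpc1, elongation, termination and recycling factors such as Etf1, mitochondrial factors, and synthetase complex partners of Eef1e1), edgeR and DESeq2 each called 0, against 5.13% of all protein-coding genes called by edgeR, and 6 had an unadjusted p under 0.05 in edgeR. The median log2 fold change of this list was 0.03, with 29 above and 23 below 0.

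eIF1 and eIF1A bind the small subunit and guard the choice of start codon. None of the 5 genes of the eIF1 group was called by edgeR, and none had an unadjusted p under 0.05 in edgeR or in DESeq2. Eif1, which encodes eIF1, had 83.5, 89.4 and 95.7 CPM in standard RIBO-seq and 80.9 and 89.9 CPM in AHARIBO RIBO-seq, and the groups overlapped. Its paralog Eif1b had 8.63, 8.61 and 7.14 CPM against 7.17 and 7.19 CPM, again with overlap. The ratio of the footprint densities of Eif1 and Eif1b was 9.68, 10.4 and 13.4 in standard RIBO-seq and 11.3 and 12.5 in AHARIBO RIBO-seq, with overlap. Eif1ax, which encodes an eIF1A, had 51.0, 50.6 and 52.8 CPM against 46.1 and 47.4 CPM. Both AHARIBO libraries were below the standard libraries, but the log2 fold change of −0.14 did not pass (edgeR's quasi-likelihood test, adjusted p = 0.396).

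Eif1 and Eif1b are shown with their start codons because eIF1 is the factor that rejects poor start sites, and the mRNAs of both carry one themselves. In the windows below, from Gencode M21 transcripts on GRCm38, the start codon is in capitals with 12 nt to each side.
Eif1, chr11:100320118-100320144, + strand: gaatcgtatcgtATGtccgctatccag
Eif1b, chr9:120492799-120492825, + strand: cactagtgtcgcATGtccactatccag
Eef1a1, chr9:78480640-78480666, − strand: ttcaaagcaaaaATGggaaaggaaaag
Both Eif1 paralogs had neither a purine 3 nt before the start codon nor a G after it, whereas Eef1a1, given for comparison, had both. This weak context was found in 5 of 68 members (Eef1akmt1, Eif1, Eif1b, Eif3b and Eif4e1b) and in 6.09% of 12094 protein-coding genes. The coding sequences of Eif1 and Eif1b were identical at 81.1% of 339 nt, but only 0.97% of the 30-nt coding windows of Eif1b also occurred in a transcript of another gene, against 99.0% for Eif1, which shared them with 23 genes, 22 of them pseudogenes. The level of Eif1 may therefore include reads of these copies.

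Methionine codons were counted because AHA replaces methionine. Eif1 and Eif1b were the members with 1 ATG codon, the start codon itself, in a coding sequence of 113 codons. Among all protein-coding genes tested, 245 of 12367 (1.98%) had 1 ATG codon, and of these edgeR called 34 (13.9%), each lower in AHARIBO RIBO-seq, against 5.13% of all protein-coding genes called and 2.53% called lower, with a median log2 fold change of −0.16. The part of the labelling or of coding length in this was not tested. Eif1 was at −0.07 and Eif1b at −0.20, and neither passed the test (edgeR, adjusted p = 0.730 and 0.536). Across the 65 members, the log2 fold change had a Spearman's rho of −0.14 with the number of ATG codons per 100 codons and of 0.17 with the length of the coding sequence. These are correlations across genes of the same 5 libraries, given as a description. The median of ATG codons per 100 codons was 2.12 both for members and for all protein-coding genes.

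eIF2 carries the initiator tRNA as a GTP-bound trimer, eIF2B reloads it with GTP, and the eIF2 kinases stop this cycle under stress. In the 15 genes of the eIF2 group, edgeR called 0 and DESeq2 called 0, with 2 (edgeR) and 0 (DESeq2) at an unadjusted p under 0.05, and the summed level was 635, 633 and 625 CPM in standard RIBO-seq against 651 and 628 CPM in AHARIBO RIBO-seq. Eif2s2, the β subunit, had 137, 132 and 143 CPM against 138 and 141 CPM. Eif2s1, the α subunit that the kinases phosphorylate, had 75.1, 69.4 and 69.3 CPM against 68.7 and 75.9 CPM. Both genes overlapped between the groups, with log2 fold changes of 0.03 and 0.02.

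The γ subunit is encoded on both sex chromosomes in the mouse, and footprints were found on both genes. Eif2s3x, on the X chromosome, had 80.2, 83.7 and 82.7 CPM against 94.8 and 84.9 CPM. Eif2s3y, on the Y chromosome, had 12.2, 12.5 and 11.1 CPM against 12.4 and 12.4 CPM. The ratio of Eif2s3x to Eif2s3y density was 6.57, 6.71 and 7.44 in standard RIBO-seq and 7.63 and 6.85 in AHARIBO RIBO-seq, and the groups overlapped. The coding sequences were identical at 86.3% of 1416 nt, and 0.36% of the 30-nt coding windows of Eif2s3y, but 95.03% of those of Eif2s3x, also occurred in another gene.

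The 5 subunits of eIF2B had log2 fold changes between −0.22 (Eif2b4) and 0.12 (Eif2b1). Eif2b4 had 34.6, 35.9 and 35.7 CPM in standard RIBO-seq and 30.8 and 30.0 CPM in AHARIBO RIBO-seq, without overlap, and did not pass (edgeR, adjusted p = 0.155). The 4 kinases Eif2ak1 (the heme-regulated kinase), Eif2ak2 (PKR), Eif2ak3 (PERK) and Eif2ak4 (GCN2, which responds to uncharged tRNA in amino acid starvation) had mean levels between 7.33 and 26.02 CPM. Eif2ak4 had 10.9, 14.0 and 12.4 CPM against 15.8 and 13.8 CPM, and the groups overlapped (log2 fold change 0.26, edgeR, adjusted p = 0.255).

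eIF3 is the large scaffold on the small subunit, built of many proteins in fixed proportion. Of the 14 genes, edgeR called Eif3f and Eif3i lower and none higher, DESeq2 called 0, and the median log2 fold change was −0.06. Eif3f, a subunit with an MPN domain, had 145, 144 and 145 CPM in standard RIBO-seq and 115 and 126 CPM in AHARIBO RIBO-seq. Both AHARIBO libraries lay well below the narrow range of the standard libraries, a log2 fold change of −0.26 ± 0.08 (SE, edgeR's quasi-likelihood test, adjusted p = 0.0377). Eif3i, a WD-repeat subunit, had 102, 99.8 and 104 CPM against 83.9 and 84.8 CPM. Here too the groups did not overlap, with a log2 fold change of −0.27 ± 0.08 (edgeR, adjusted p = 0.0331). Both calls were lost with DESeq2 (adjusted p = 0.0937 for Eif3f and 0.0982 for Eif3i) and when duplicate reads were kept, where edgeR gave −0.29 (adjusted p = 0.0750) for Eif3f and −0.14 (adjusted p = 0.347) for Eif3i. The share of reads that had been removed as duplicates was 40.7% for Eif3f and 39.4% for Eif3i, against a median of 25.1% over the members.

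The densities of the eIF3 subunits, in CPM per kb of coding sequence, spread over a 4-fold range. The highest was Eif3k, with 142, and the lowest were Eif3j1 (38.2) and Eif3j2 (35.2), the 2 genes of the loosely bound eIF3j subunit, whose 30-nt coding windows were shared by 100%. Eif3a, the largest subunit, had a density of 39.5, and Eif3c had 95.1. Eif3k had 92.1, 94.9 and 100 CPM against 84.96 and 90.9 CPM, and both AHARIBO libraries were below all standard libraries without passing the test (log2 fold change −0.12, edgeR, adjusted p = 0.428).

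The eIF4 proteins recognise the cap (eIF4E), bridge it to the small subunit (eIF4G) and unwind the leader (eIF4A with eIF4B or eIF4H). The binding proteins eIF4EBP1 to eIF4EBP3 compete with eIF4G for eIF4E and lose it when mTOR phosphorylates them. Of 14 genes tested in this group, edgeR called Eif4ebp2 higher and Eif4ebp1 lower, and DESeq2 called 0.

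Eif4ebp1 had 91.1, 83.2 and 88.8 CPM in standard RIBO-seq and 67.1 and 78.7 CPM in AHARIBO RIBO-seq. The groups did not overlap, with a log2 fold change of −0.27 ± 0.08 (SE, edgeR's quasi-likelihood test, adjusted p = 0.0478). With duplicate reads kept, where 3.43% of all transcripts were called, Eif4ebp1 alone among the members was called, at −0.42 (edgeR, adjusted p = 0.0169), although 48.8% of its reads had been marked as duplicates. Eif4ebp2 had 41.3, 40.7 and 40.6 CPM against 54.7 and 47.0 CPM, and both AHARIBO libraries were above the standard libraries. Its log2 fold change was 0.32 ± 0.09 (edgeR, adjusted p = 0.0218), and with duplicate reads kept it was 0.07 (edgeR, adjusted p = 0.745). Without AHARIBO replicate 1, the library that was farther from the standard libraries in both genes, the log2 fold change was −0.16 (adjusted p = 0.634) for Eif4ebp1 and 0.20 (adjusted p = 0.523) for Eif4ebp2 in edgeR.

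The start codons of the pair are shown because both coding sequences have a purine before the start codon and encode small proteins of 117 and 120 codons, with capitals and source as above.
Eif4ebp1, chr8:27260397-27260423, + strand: cgtgcaggagacATGtcggcgggcagc
Eif4ebp2, chr10:61452532-61452558, − strand: cgcgtcggagccATGtccgcgtcggcc
In each, the purine is a G, 3 nt before the start codon. The density of Eif4ebp1 over that of Eif4ebp2 was 2.26, 2.096 and 2.24 in standard RIBO-seq and 1.26 and 1.72 in AHARIBO RIBO-seq. With the short transcript of Eif4ebp2, which has the same coding sequence and is described next, it was 2.71, 2.46 and 2.62 against 2.19 and 2.65, and the groups overlapped. The third gene, Eif4ebp3, was nearly absent, with 1.905, 1.21 and 1.43 CPM against 1.31 and 0.499 CPM (log2 fold change −0.70 ± 0.43, edgeR, adjusted p = 0.394). Its log2 fold change ranged from −1.58 to −0.21 when 1 library was left out.

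The call of Eif4ebp2 came with reads outside its coding sequence. Gencode lists a long transcript (ENSMUST00000020288.14, 5784 nt) and a short one (ENSMUST00000167087.1, 1422 nt) with the same coding sequence, and 98.1% of the 30-nt windows of the short transcript occur in the long one. The long transcript continues 4329 nt further into the 3′ UTR, at chr10:61428491-61432819 on the − strand of GRCm38, where Gencode M21 annotates no other gene than Eif4ebp2. The short transcript had 34.5, 34.7 and 34.7 CPM in standard RIBO-seq and 31.5 and 30.5 CPM in AHARIBO RIBO-seq, so that both AHARIBO libraries were below (log2 fold change −0.16, edgeR, adjusted p = 0.336). The direction was thus opposite to that of the long transcript.

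Subtracting the short from the long transcript left the reads beyond the short one. These were 61, 55 and 37 counts in standard RIBO-seq and 265 and 166 counts in AHARIBO RIBO-seq. They made up 16.5%, 14.9% and 14.5% of the long transcript's reads in standard RIBO-seq and 42.4% and 35.2% in AHARIBO RIBO-seq. As levels, the 3 standard libraries averaged 6.26 CPM (SD 0.51) and the 2 AHARIBO libraries 19.9 CPM (SD 4.67), at a ratio of 3.18, and the groups did not overlap. With duplicate reads kept, the counts were 80, 72 and 43 against 290 and 178, so that duplicate removal had taken 23.8%, 23.6% and 14.0% of these reads in standard RIBO-seq and 8.62% and 6.74% in AHARIBO RIBO-seq. The part of this unequal removal in the ratio was not tested, and the counts did not overlap either way.

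In the whole table, 66 pairs of protein-coding transcripts differed like these by a 3′ extension of at least 1000 nt and by at most 50 nt elsewhere. In 16 of them the short transcript had more reads than the long one in some library, so the subtraction is only approximate. Of these pairs, 9 had at least 50 reads beyond the short transcript. Eif4ebp2 ranked number 3 among them by the ratio of AHARIBO to standard, 3 of the 9 had a ratio above 2, and the median ratio was 1.12. Summed over the pairs other than Eif4ebp2, the level beyond the short transcript was 65.0, 59.4 and 59.3 CPM in standard RIBO-seq and 77.7 and 75.9 CPM in AHARIBO RIBO-seq, which was 6.66% to 7.17% of the long transcripts' reads against 8.51% to 8.56%.

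eIF4A is a helicase encoded by a pair of paralogs, and Eif4a3 encodes a related protein of the exon junction complex. Eif4a1 had 357, 354 and 379 CPM against 309 and 353 CPM, and AHARIBO replicate 2 was below the standard libraries only narrowly (log2 fold change −0.14, edgeR, adjusted p = 0.350). Leaving out 1 library moved this value between −0.23 and −0.04. Eif4a2 had 53.0, 55.1 and 52.2 CPM against 61.5 and 62.7 CPM, without overlap (log2 fold change 0.22, edgeR, adjusted p = 0.121). Consequently, the density of Eif4a1 over that of Eif4a2 was 6.01, 5.73 and 6.48 in standard RIBO-seq and 4.48 and 5.01 in AHARIBO RIBO-seq. With duplicate reads kept, the ratio was 10.5, 10.8 and 9.87 against 9.52 and 9.29, again without overlap. The duplicates removed amounted to 63.8% of the Eif4a1 reads and 33.2% of the Eif4a2 reads, and 99.2% of the coding windows of Eif4a1 also occurred in pseudogenes such as Eif4a-ps4.

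Among the other eIF4 genes, the scaffold Eif4g1 had 193 to 207 CPM over the 5 libraries and the cap-binding Eif4e had 28.9 to 33.2 CPM. Eif4enif1, the eIF4E transporter, had 15.2, 15.8 and 16.5 CPM in standard RIBO-seq and 20.998 and 16.7 CPM in AHARIBO RIBO-seq. The groups did not overlap, but the margin of the lower AHARIBO library was small and the log2 fold change of 0.26 ± 0.12 did not pass (edgeR, adjusted p = 0.189). It ranged from 0.08 to 0.41 when 1 library was left out. Eif4g2 encodes an eIF4G relative without an eIF4E site and is known for its start codon, which was the member set's exception to ATG, shown in capitals as above.
Eif4g2, chr7:111081533-111081559, − strand: caagccgccaaaGTGgagagtgcgatt
The level of Eif4g2 was 161, 163 and 183 CPM against 182 and 182 CPM, and the groups overlapped.

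eIF5 stimulates GTP hydrolysis by eIF2, eIF5B joins the subunits, eIF5A helps the ribosome through difficult peptide bonds, and eIF6 keeps the large subunit apart. Of the 5 genes, edgeR and DESeq2 each called 0, with 2 at an unadjusted p under 0.05 in each. Eif5a had 196, 184 and 209 CPM against 163 and 180 CPM, and Eif6 had 86.4, 85.1 and 89.95 CPM against 70.1 and 78.3 CPM. Both were below all standard libraries in AHARIBO RIBO-seq and missed the threshold (log2 fold change −0.20 and −0.23, edgeR, adjusted p = 0.143 and 0.0864). With 1 library left out, the value ranged from −0.27 to −0.13 for Eif5a and from −0.31 to −0.15 for Eif6. Eif5a2, the little expressed paralog of Eif5a, had 1.57, 1.32 and 1.75 CPM against 2.36 and 1.70 CPM, with overlap, and its log2 fold change of 0.42 was the highest among the members but had an SE of 0.33. The density of Eif5a over that of Eif5a2 was 119.04 to 138 in standard RIBO-seq and 68.4 and 105 in AHARIBO RIBO-seq, and with duplicate reads kept it was 330, 343 and 273 against 220 and 298, with overlap.

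Eif5 itself differed by no more than its error on the main transcript. A transcript over part of its leader and an intron, here called the leader transcript, was lower. The main transcript (ENSMUST00000166123.8) had 71.7, 62.9 and 66.8 CPM against 71.4 and 70.4 CPM (log2 fold change 0.08 ± 0.08, edgeR, adjusted p = 0.660). Its leader of 626 nt holds 5 upstream ATGs, and upstream reading frames are known to repress eIF5 synthesis. An upstream ATG was found in 22 of 68 members and in 50.2% of all protein-coding genes. A retained-intron transcript of Eif5 (ENSMUST00000221648.1, chr12:111538216-111539144, + strand, GRCm38) shares 218 nt of this leader and no coding sequence, and the rest of it is intron of the main transcript. That rest holds exons of other Eif5 transcripts, such as ENSMUST00000050993.10. Whether the 218 nt hold any of the 5 upstream ATGs was not determined, and which part the reads came from cannot be told from these counts. The leader transcript had 20.2, 16.3 and 20.0 CPM in standard RIBO-seq and 11.6 and 11.8 CPM in AHARIBO RIBO-seq. The groups were well apart, with a log2 fold change of −0.68 ± 0.12 (edgeR, adjusted p = 0.000268), and with duplicate reads kept it was −0.92.

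This was not particular to Eif5 in direction. Over all protein-coding genes, 107 such transcripts shared leader but no coding sequence with the main transcript of their gene, and in 89 of them the log2 fold change was below that of the main transcript, with a median difference of −0.25. The second one among the members, of Eif2s1 (ENSMUST00000219754.1), had a log2 fold change of −0.27 (edgeR, adjusted p = 0.317) against 0.02 for the main transcript.

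**Figure D2:**
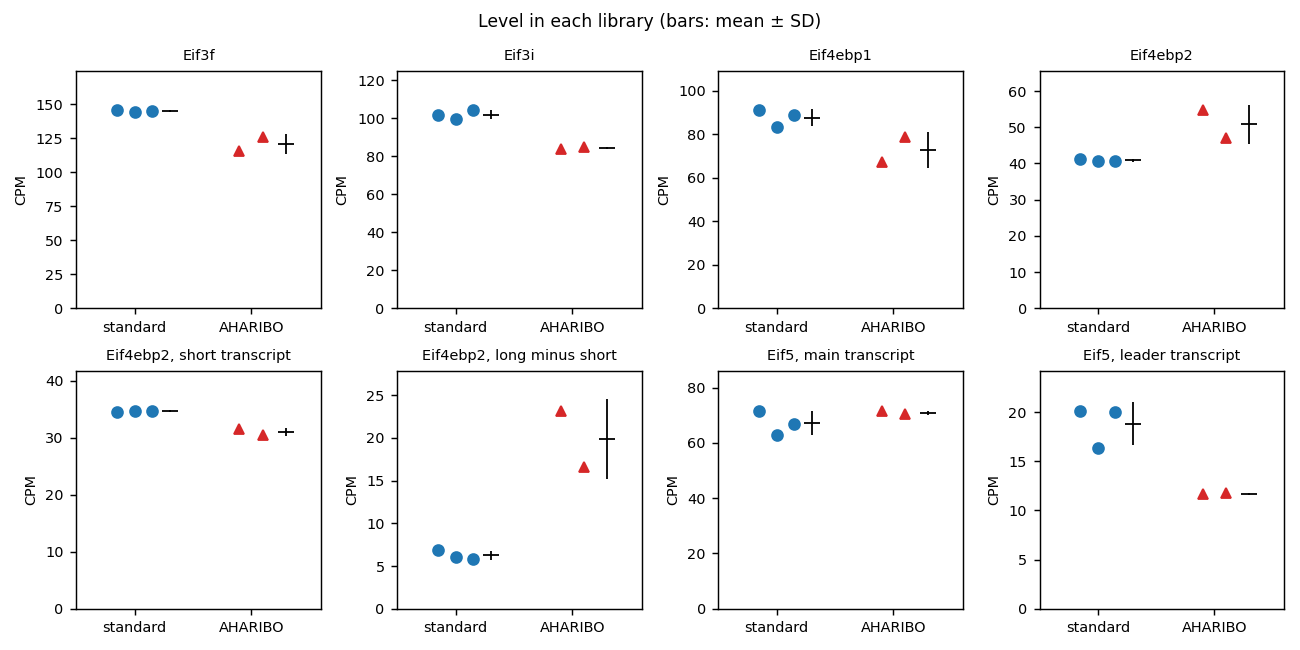
Level in CPM (y axis, from 0) in each of the 3 standard (circles) and 2 AHARIBO (triangles) libraries for the 4 called members, the short transcript of Eif4ebp2, the reads of the long beyond the short one, and the main and leader transcripts of Eif5, with mean ± SD beside the points. The reads beyond the short Eif4ebp2 transcript and the Eif5 leader transcript differ most between the methods as a ratio among these panels, at a mean of 6.26 against 19.9 CPM and at 16.3 to 20.2 against 11.6 to 11.8 CPM.

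The eEF group holds both the densest member, Eef1a1, and some of the sparsest. eEF1A delivers aminoacyl-tRNA, the eEF1B subunits (Eef1b2, Eef1d and Eef1g) recharge it with GTP, and eEF2 translocates the ribosome. Of 12 eEF genes tested, edgeR and DESeq2 each called 0, and 3 (edgeR) and 2 (DESeq2) had an unadjusted p under 0.05. Eef1a1 had 780, 770 and 897 CPM in standard RIBO-seq and 639 and 761 CPM in AHARIBO RIBO-seq. Eef2 had 812, 802 and 862 CPM against 674 and 768 CPM. In both genes the AHARIBO libraries were below the standard libraries, replicate 2 only narrowly for Eef1a1, and neither passed (log2 fold change −0.22 and −0.20, edgeR, adjusted p = 0.105 and 0.137). Without AHARIBO replicate 2, the log2 fold changes were −0.35 and −0.29, and without AHARIBO replicate 1 they were −0.099 and −0.103. Eef1a1 passed in edgeR when no filter on low levels was set (adjusted p = 0.0351).

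Eef1a2, the muscle and neuron paralog of Eef1a1, had 1.23, 0.993 and 1.75 CPM against 1.14 and 1.80 CPM, with overlap. Eef2k, the kinase that inactivates eEF2, had 12.7, 11.8 and 9.84 CPM against 10.1 and 8.79 CPM, with overlap and a log2 fold change of −0.29 ± 0.14 (edgeR, adjusted p = 0.250). The methyltransferases of eEF1A and eEF2 were low beside the other members, with mean densities of 0.753 (Eef1akmt3) to 16.1 (Eef2kmt) CPM per kb. The median was 56.8 over the members tested and 6.93 over all protein-coding genes tested.

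Ranked by density over all 5 libraries, in CPM per kb of coding sequence, the order began with Eef1a1 (555), Eif5a (403), Eef2 (304), Eif4a1 (288), Eef1b2 (260), Eif1 (259), Eif4ebp1 (233) and Eef1g (227). Eef1b2 and Eif1 were within each other's spread between libraries. The libraries of Eif4ebp1 lay on both sides of the mean of Eef1g, so the order of that pair is not settled either. The median of the members tested was 56.8, against 6.93 for all protein-coding genes tested. The order hardly changed with duplicate reads kept (Spearman's rho 0.996 over 65 members) and more when the deposited transcript length was used instead (0.865). Shared sequence touched the top of the order, since 84.1% of the coding windows of Eef1a1 occurred in 24 other genes, 19 of them pseudogenes, and 95.01% of those of Eef1g in 9 pseudogenes. Over the 68 members, 15 shared at least 50% of their coding windows with another gene and 24 shared none.

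**Figure D3:**
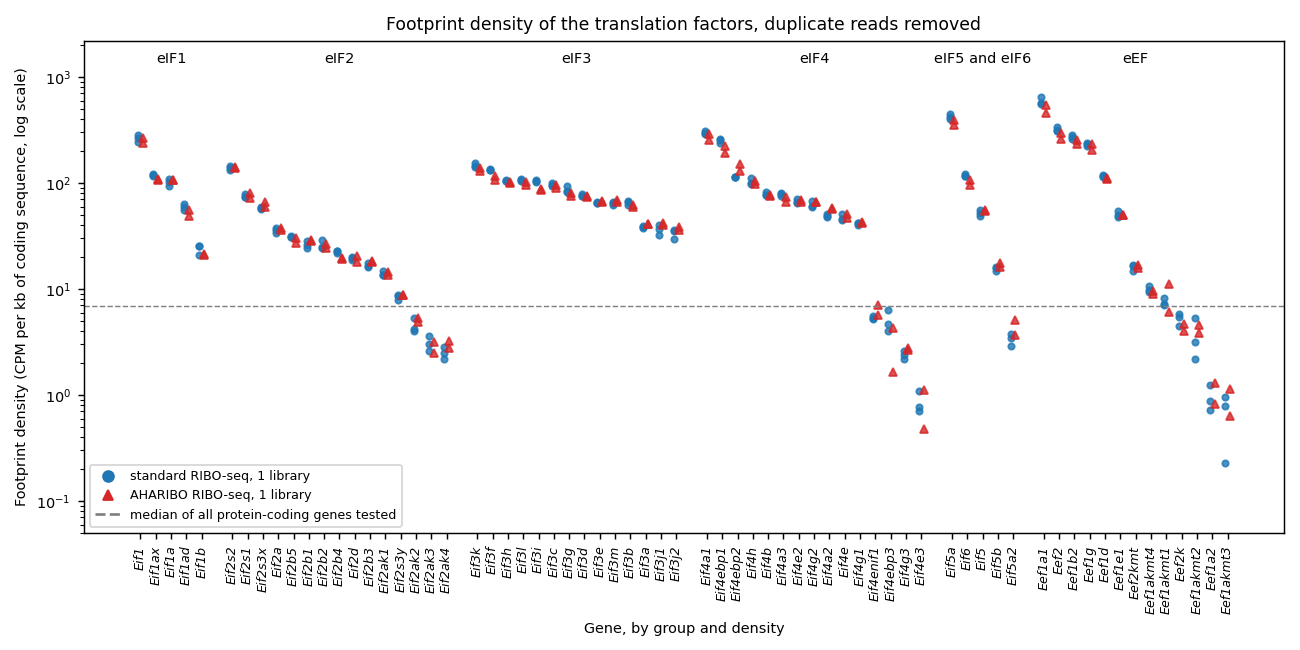
Footprint density in CPM per kb of coding sequence (y axis, log scale) for each member with reads (x axis, by group and density), with 1 circle per standard and 1 triangle per AHARIBO library, and the median of 6.93 over all protein-coding genes as a dashed line. The densities span from Eef1a1 at a mean of 555 to Eef1akmt3 at 0.753, and the 2 methods lie on top of each other for most genes.

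The densest members were also the ones from which most reads had been removed as duplicates. The share removed was 86.8% for Eef1a1, 65.6% for Eif5a, 64.1% for Eef1b2, 63.8% for Eef2 and for Eif4a1, 59.8% for Eef1g and 55.5% for Eif1, against a median of 10.2% over protein-coding genes. Across the 65 members, this share followed the density with a Spearman's rho of 0.921, as a description over genes of the same libraries. The sources used here name no molecular identifiers, and without them copies made by PCR and independent footprints with the same ends cannot be told apart. Of all reads, 43.3% to 43.8% had been removed in standard RIBO-seq, 47.7% in AHARIBO replicate 1 and 44.9% in AHARIBO replicate 2.

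With duplicates removed, all 7 members with at least 50% of duplicates had a log2 fold change below 0, with a median of −0.14. With duplicates kept, 2 of the 7 were below 0, and the median was 0.08. For Eef1a1, the levels with duplicates kept were 3110, 3204 and 2771 CPM in standard RIBO-seq and 3403 and 3071 CPM in AHARIBO RIBO-seq, so that the groups overlapped and the log2 fold change turned to 0.10. For Eif4a1, it turned from −0.14 to 0.13. All 7 had a higher log2 fold change with duplicates kept than without, as did 34 of the 58 other members. In the 557 protein-coding genes with at least 50% of duplicates, 81.1% were below 0 with duplicates removed and 67.9% with duplicates kept. The part of duplicate removal in the lower level of these members was not tested.

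The sum over all members moved in the same way. It was 6450, 6390 and 6764 CPM in standard RIBO-seq against 5964 and 6320 CPM in AHARIBO RIBO-seq with duplicates removed, and 9063, 9139 and 8417 CPM against 9397 and 8841 CPM with duplicates kept. The groups did not overlap in the first and overlapped in the second. Dense genes weigh most in these sums. The eEF group, with Eef1a1 and Eef2, gave 2233, 2228 and 2433 CPM of the first in standard RIBO-seq and 1905 and 2173 CPM in AHARIBO RIBO-seq. Of the second it gave 5137, 5277 and 4628 CPM against 5397 and 5017 CPM.

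**Figure D4:**
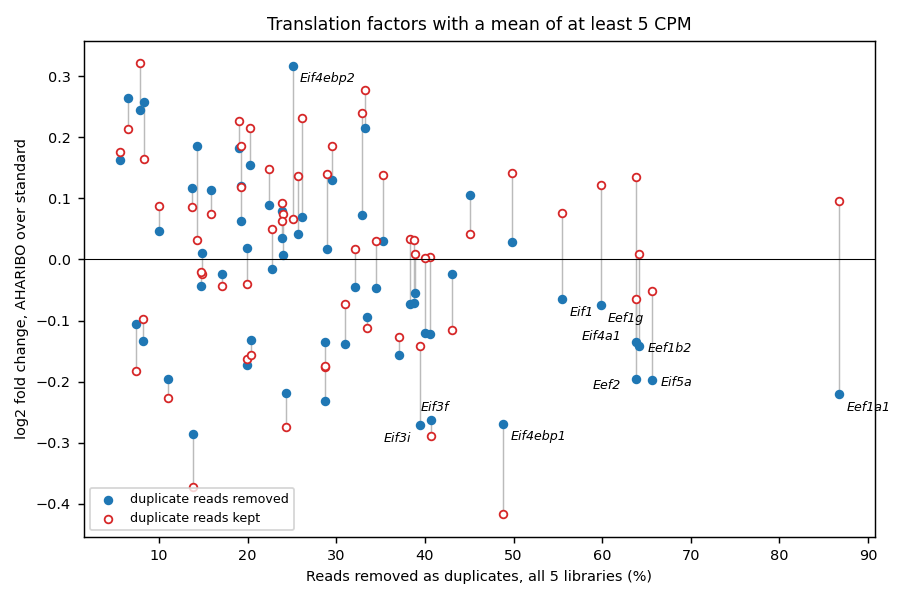
Log2 fold change of AHARIBO over standard RIBO-seq (y axis) against the percentage of reads removed as duplicates (x axis) for members with a mean of at least 5 CPM, with duplicates removed (filled) and kept (open) joined by a line. The 7 genes at the right, above 50%, are all below 0 with duplicates removed, and 5 of them are above 0 with duplicates kept.

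The other transcripts of the member genes share reads with the main transcripts and were read from the same fit. Of 326 such transcripts tested, edgeR called 25 (7.67%), 12 higher and 13 lower, in 12 genes, against 4.51% of all transcripts. The share was 3.60% of 139 protein-coding transcripts, against 4.31% of those of other genes, and 11.97% of 117 transcripts with a retained intron, against 3.92% of those of other genes. Without AHARIBO replicate 1, 4 of the 25 stayed called by edgeR (3 of Eif4a2 and the Eif5 leader transcript), and with duplicate reads kept 14 did. DESeq2 gave 12 of the 25 an adjusted p and called 2, both of Eif3i. These transcripts are not independent of each other, since several of a gene cover the same exons.

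Most transcripts called lower shared an early stretch with the main transcript. Of the 13 called lower, 11 had their mean position in the first 35% of the coding sequence, 1 was the leader transcript of Eif5, and 1, of Eef2, lay near the stop codon. Of the 12 called higher, all had their mean position at or beyond 40% of the coding sequence, and they belonged to 3 genes, Eif4a2 (5), Eif4g2 (4) and Eif5 (3). Of these 12, 10 lacked at least 30% of the coding sequence, while 2 of Eif5 (ENSMUST00000050993.10 and ENSMUST00000222757.1) covered all or most of it, start included, so that their mean position does not mark a late stretch. These limits of 35% and 40% were set after the values were seen. The position refers only to the coding stretch shared with the main transcript. Several called transcripts lie mostly outside the main transcript, such as those of Eif4h (ENSMUST00000201263.1, 70 of 1849 nt shared) and Eif3i (ENSMUST00000143384.1, 204 of 2323 nt). Others share more leader than coding sequence, such as those of Eif1ax (ENSMUST00000133252.1, 222 against 100 nt) and Eif6 (ENSMUST00000109638.1, 230 against 193 nt). The part of leader reads in these calls was not tested. Under 50% of the length was shared in 7 of the 13 called lower and 2 of the 12 called higher, and which reads came from the rest cannot be told from these counts.

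As an example of an early stretch, a short transcript of Eif3i (ENSMUST00000155428.1, 401 nt) had 36.4, 32.5 and 37.3 CPM in standard RIBO-seq and 24.6 and 26.3 CPM in AHARIBO RIBO-seq. Its log2 fold change was −0.47 (edgeR, adjusted p = 0.00127), against −0.27 for the main transcript. For Eif2ak3 (PERK), a transcript over the first exons (ENSMUST00000162950.1, 927 nt) had 4.93, 4.75 and 5.08 CPM against 3.15 and 2.80 CPM (−0.71, edgeR, adjusted p = 0.0392), whereas the main transcript was at −0.13. As an example of a late stretch, an Eif4g2 transcript that shares 334 of its 763 nt with the end of the main coding sequence (ENSMUST00000163014.1) had 8.40, 10.7 and 9.20 CPM against 15.1 and 13.1 CPM (0.58, edgeR, adjusted p = 0.00546), against 0.11 for the main transcript. In Eif4a2, a retained-intron transcript (ENSMUST00000125553.1, 611 nt) had 8.18, 7.29 and 6.98 CPM against 14.0 and 12.6 CPM (0.82, edgeR, adjusted p = 7.81e-05), against 0.22 for the main transcript. This one is not a late stretch, since its mean position was 0.435 along the coding sequence, and it shares 308 nt with the main transcript. In these 4 transcripts the groups did not overlap. The calls of the Eif2ak3 and Eif4g2 transcripts were lost with duplicate reads kept (edgeR, adjusted p = 0.110 and 0.105) and without AHARIBO replicate 1 (adjusted p = 0.201 and 0.224), and the latter also ended that of the Eif3i transcript (adjusted p = 0.0563).

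Small nucleolar RNA (snoRNA) genes lie in introns of Eif4a2 and Eif4g2. An annotated snoRNA gene lay within the exons of 6 of the 12 transcripts called higher (the 5 of Eif4a2, with Snora81 among the snoRNAs, and 1 of Eif4g2) and of 0 of the 13 called lower. The part of snoRNA fragments in these 6 calls was not tested.

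The dependence on position was then laid out for all transcripts that cover only a stretch of the coding sequence. These were transcripts with at least 60 nt of the main coding sequence, at least 30% of it missing and a mean of at least 5 CPM, and the log2 fold change of the main transcript was subtracted from theirs. Leader and intron sequence in these transcripts was not excluded, and its part in the differences was not tested. For the 183 such transcripts of 50 member genes, sorted by their mean position into steps of 20% of the coding sequence, the median difference was −0.11 in the first step (60 transcripts), −0.03 in the next (54), 0.01 in the middle (22), 0.08 in the one after it (26) and 0.14 in the last (21). In the first step 45 of 60 were below their main transcript, and in the last 5 of 21. Over all protein-coding genes the medians were −0.12, −0.03, 0.03, 0.06 and 0.05, and 76.3% in the first step and 35.8% in the last were below. Whether the members differed from all genes in the last step was not tested.

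By library, the median deviation of the members' transcripts in the first 20% from the mean of the standard libraries was 0.02, −0.04 and 0.03 in standard RIBO-seq and −0.12 and −0.07 in AHARIBO RIBO-seq. For the last 20% it was −0.03, 0.03 and 0.00 against 0.15 and 0.07. Both AHARIBO libraries lay outside the standard libraries at both ends, replicate 1 farther than replicate 2. With duplicates kept, the 5 medians of the members were −0.10, −0.03, 0.04, 0.08 and 0.20.

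**Figure D5:**
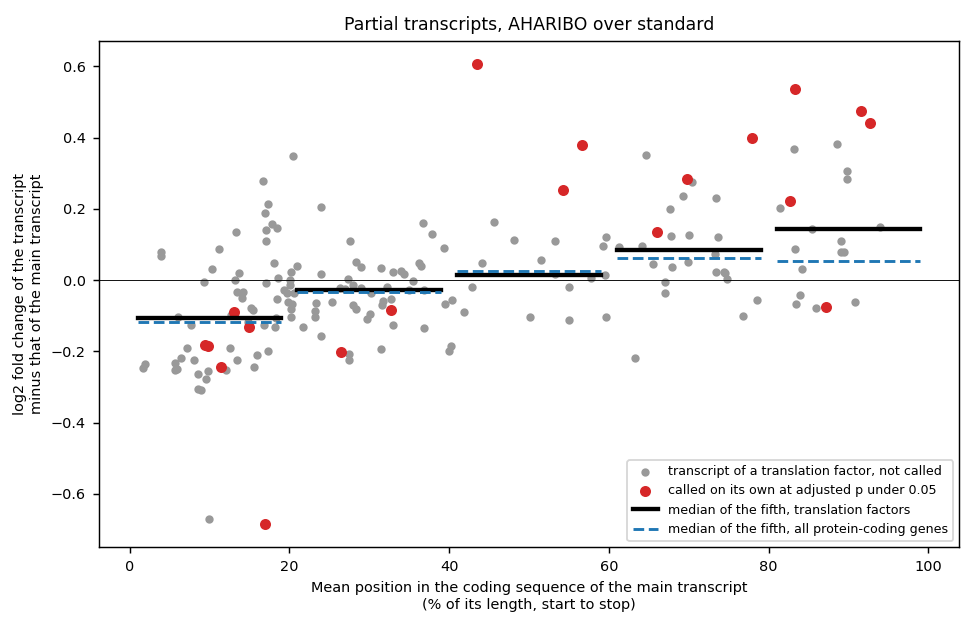
Difference in log2 fold change between a partial transcript and the main transcript of its gene (y axis) against the mean position of the partial transcript in the coding sequence (x axis, % from start to stop), for 183 transcripts of the translation factors, with those called on their own in red. Bars are medians per 20% of the coding sequence for the translation factors (solid) and all protein-coding genes (dashed), which run from −0.11 and −0.12 in the first 20% to 0.14 and 0.05 in the last, with the dashed bars highest, at 0.06, in the step before the last.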

How the data were processed

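Footprint libraries of standard RIBO-seq (3) and AHARIBO RIBO-seq (2) were grouped by the labels. The authors trimmed reads with Trimmomatic 0.36, removed rRNA and tRNA reads, aligned the rest to Gencode M17 transcripts (GRCm38.p6) with STAR, and deposited raw counts per transcript, with duplicates removed and kept, and each transcript's length in nt. How a read on several transcripts was counted is not given in the sources used here, so transcripts of a gene are not independent, and totals may count a read more than one time. Counts without duplicates were used, as the methods state. The depth was 6403651 to 11150527 counts per library.

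CPM were computed with TMM factors over all transcripts, and those reaching 1 CPM in any library were tested with edgeR 4.0.16 (R 4.3.3; glmQLFTest, no replicate block, Benjamini-Hochberg over 66972 transcripts). SEs were approximated from fold change and F value. As an alternative, DESeq2 1.42.0 was run. On simulated data with 200 changed transcripts, edgeR recovered 89.1% of 2-fold and 100% of 4-fold changes with 7 unchanged transcripts called, and DESeq2 56.5% and 95.4% with 0. The changed transcripts had a mean above 2 CPM, and the counts varied by the trended dispersion alone. Changes under 2-fold were not simulated, so these rates do not cover changes as small as those called. Annotation came from Gencode M21, which matched 99.8% of the deposited identifiers. Values in each library are given for called members, the 2 densest of each group, the 3 largest rises and falls, paralog pairs and genes chosen after their values were seen (Eif2b4, Eif2ak4, Eif4g2 and the transcripts other than main ones). The members and lists were chosen with earlier results of these data known, and the analyses of position, 3′ extension and leader were added after the data were seen.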

Additional observations from a re-analysis of the deposited data

How the results depend on the processing

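Of 363 values with a direction recomputed under alternatives, 305 kept it and their side of the threshold. Of the rest, 38 lost and 6 gained a call, and 14 changed sign. Most of the 363 belong to members that were not called, for which keeping the side means staying uncalled. Only the 4 called members could lose a call. DESeq2, the replicate block and an adjusted p under 0.01 each took all 4 calls, and keeping duplicate reads took 3. The cause of the changes below was not tested. The number of members called was 4. It was 0 with DESeq2 (8 at an unadjusted p under 0.05), 0 in edgeR with an adjusted p under 0.01, 1 with library sizes in place of TMM, 1 with duplicate reads kept, 1 with 1 transcript per gene in the table, and 0 to 7 when 1 library was left out. Over all 204 protein-coding transcripts of the members that were tested, 9 transcripts of 8 genes were called (4.41%). Over the whole table, 3021 transcripts were called, against 267 with DESeq2, 940 with 1 transcript per gene, 1083 at an adjusted p under 0.01, and 510 to 3829 when 1 library was left out (510 without AHARIBO replicate 1). With library sizes in place of TMM, 1978 were higher and 1048 lower, against 1520 and 1501.

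The log2 fold change changed sign with duplicate reads kept for 15 of the 65 members tested, 13 of them from below to above 0, among them Eef1a1 (0.10), Eif1 (0.0761), Eif3k (0.0035) and Eif4a1 (0.13). It also changed sign on other transcripts of Eif1 (0.0255 and 0.0226), Eif1b (0.0680) and Eif4ebp2 (−0.16). When 1 library was left out, it ranged from −0.17 to 0.49 for Eef1a2, from −0.14 to 0.0104 for Eif1 and from −0.0528 to 0.0886 for Eif2s1.

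The deviations of same-numbered libraries had a correlation of −0.04 over 66972 transcripts. This rests on replicates 1 and 2 alone, so it cannot tell whether the replicate numbers pair the libraries. With a replicate block, 0 members (10 at an unadjusted p under 0.05, edgeR) and 1792 transcripts were called, and Eif2s1 was at −0.00075.

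The shift of partial transcripts in the last 20% of the coding sequence was 0.11 on average over both AHARIBO libraries, 0.17 with duplicates kept, and 0.07 or 0.15 with 1 AHARIBO library. The density of Eef1a1 was 429 CPM per kb of transcript and 2245 with duplicates kept, and that of Eif5a 139 and 638. With 3 and 2 libraries, members under 20 CPM had SEs of up to 0.43, so that differences under about 2-fold were not detectable for the lowest.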
